A study of Rattus norvegicus with 32 samples.

Results

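Genes that carry newly made proteins into the endoplasmic reticulum (ER), modify and fold them there, and move them towards the Golgi were followed in somata and dendrites taken from the same rat neurons. The list held 40 gene symbols, chosen by function but with earlier results of these data known. Of these, 39 were among the 17216 gene rows of the deposited count files, and 35 passed the filter on low counts used for testing. The missing symbol was Srp54, which RefSeq lists as a synonym of the row Srp54a; Srp54a was not counted as a member. The genes fall into 9 roles: signal recognition particle, translocon, TRAP complex, signal peptidase, oligosaccharyltransferase, folding, COPII, COPI and p24 cargo receptors.

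The neurons came from the hippocampus of wildtype Sprague Dawley rats at embryonic day 18 and were kept in culture for 15 days. They are labelled as pyramidal. From each of 16 neurons the soma was drawn into 1 micropipette and the dendrites into another, which gave 16 soma and 16 dendrite libraries paired by neuron number. Poly-A RNA was amplified in 3 rounds by in vitro transcription, and neither group received a treatment. Cells were taken from several cultures on several days, and no label ties a neuron to any of these.

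Proteins destined for membranes, vesicles or the outside of a cell are recognised by the signal recognition particle while they are still being made, and are threaded into the ER through the Sec61 channel. Inside, a signal peptidase cuts off the signal, the oligosaccharyltransferase attaches sugar chains, and chaperones fold the protein. COPII coats then carry it out of the ER, and COPI coats return escaped ER proteins from the Golgi. In neurons the ER runs from the soma throughout the dendrites, where receptors and adhesion proteins can also be made and exported locally.

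Libraries held between 229149 and 24721811 gene counts, and the dendrite library was the shallower one in 14 of 16 neurons. All 32 libraries had 10 or more counts of Neurod6, which encodes a transcription factor of excitatory forebrain neurons, whereas Slc17a7, the vesicular glutamate transporter gene, had them in 5 soma and 2 dendrite libraries. The 9 inhibitory neuron markers among the rows summed to between 0 and 13314 CPM (counts per 1000000 gene counts) in soma and between 0 and 3141 CPM in dendrites, with Dlx2 at 0 throughout. The 13 astrocyte markers summed to a median of 344 CPM in soma, between 65.8 and 812 CPM, and 458 CPM in dendrites, between 120 and 2759 CPM. Slc1a2 was at 0 in every soma. Of the 6 astrocyte markers tested, 5 were above 0, dendrites over soma, with a median log2 fold change of 1.19. Apoe was higher in dendrites in 12 neurons (4.16 ± 1.55, SE; edgeR adjusted p = 0.999), S100b in 11 and Gfap in 10. Vascular and fibroblast markers had medians of 7.87 CPM in soma and 138 CPM in dendrites, with Cldn5 at 0 in all libraries and a highest sum of 796 CPM. Oligodendrocyte markers had medians of 6.56 and 11.4 CPM and a highest sum of 147 CPM. Microglia markers reached at most 0.698 CPM. The part of these other cell types in the differences between dendrites and soma was not tested. The dendrites of neuron 20 had 4.33% of their counts in spike-in RNA, the highest share of all libraries. The soma of neuron 7 resembled the dendrites of neuron 9 more than its own, with a Spearman correlation of centred profiles of 0.259 against 0.0907, and the soma of neuron 9 resembled the dendrites of neuron 7 most. The soma of neuron 8, where Gad1, a gene for GABA synthesis, stood at 11161 CPM, also came closest to the dendrites of neuron 9. Beyond these, the somata of neurons 11, 14, 18, 20, 22 and 28 also came closest to dendrites of another neuron, so that 7 of 16 somata and 5 of 16 dendrite libraries were closest to their own partner. Counts are relative to the library, so how much RNA a compartment held was not measured.

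Messages of all 9 roles were found in dendrite libraries as well as in soma libraries. How much of them came from the other cell types whose markers were found was not tested. Spcs3, Sec23a and Cope had few counts in both compartments. They reached 10 counts in 1, 1 and 5 somata and in 0, 2 and 3 dendrite libraries. Srp72 reached them in 10 somata and 5 dendrite libraries. Of the 39 genes, 34 had 10 or more counts in at least 8 of 16 dendrite libraries, and 33 in at least 8 of 16 somata. All 32 libraries had that many counts of Srp14, Spcs1, Rpn1, Hspa5, Canx, Calr and Pdia6, 7 genes that span recognition, signal cleavage, glycosylation and folding. Over the 624 combinations of a gene and a neuron, both compartments had 10 or more counts in 406. Only the soma had them in 77, only the dendrites in 71, and neither in 70. The 35 genes that passed the filter had 10 or more counts in 83.9% of soma and 83.0% of dendrite values, against 74.2% and 71.4% over all tested genes.

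**Figure D1:**
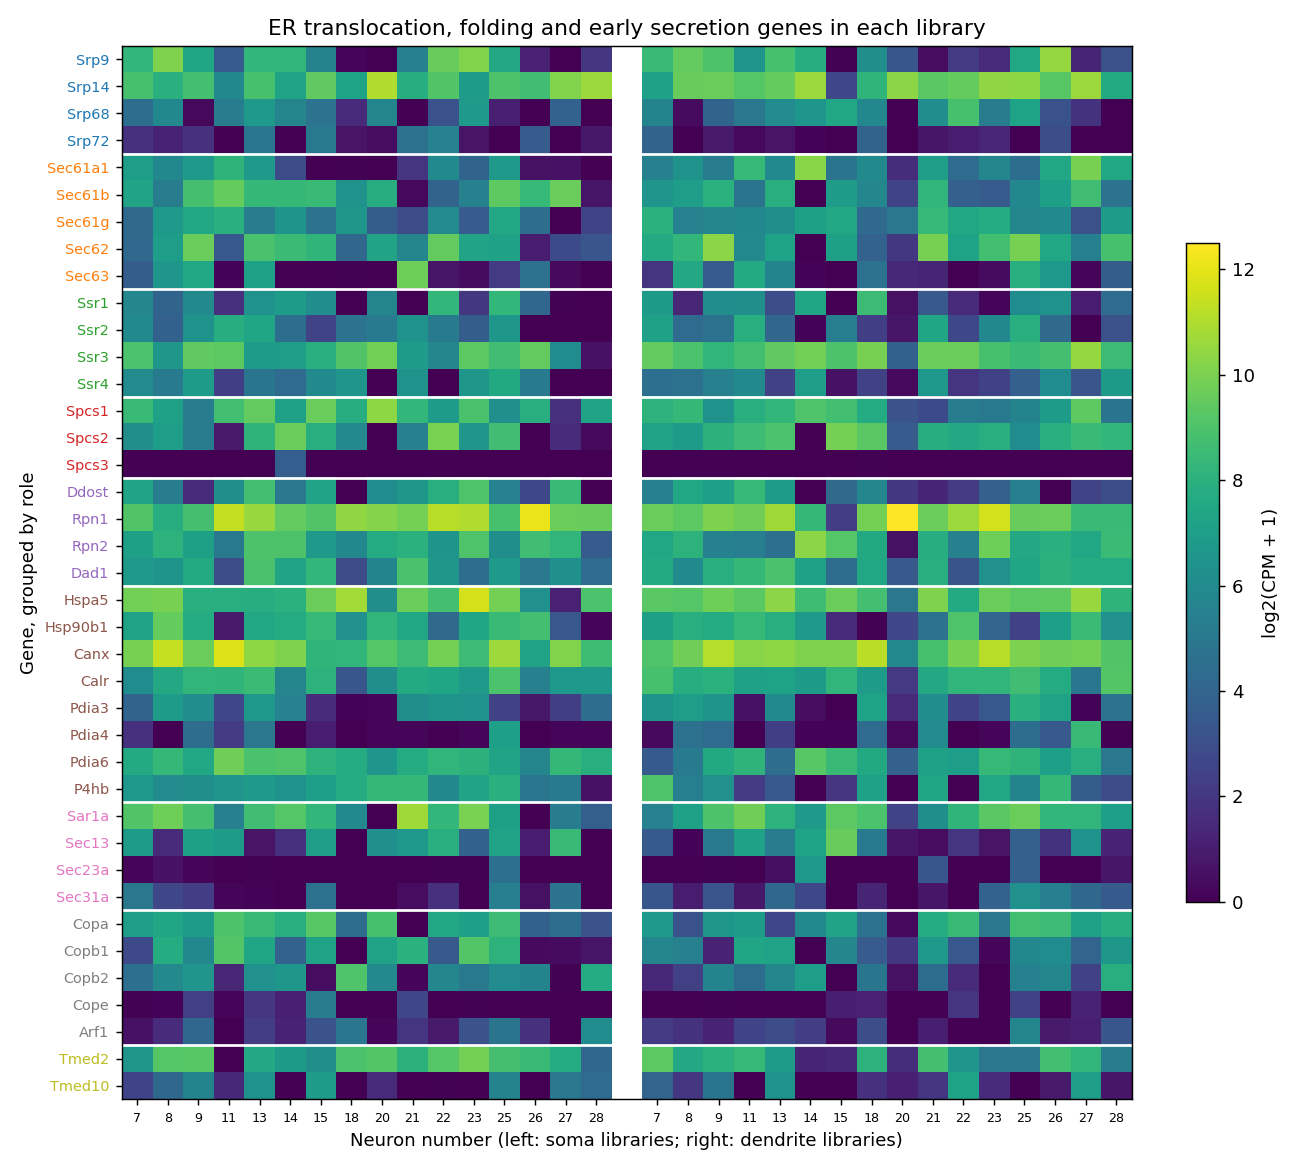
Level of the 39 genes (rows, grouped by role) in each library (columns, numbered by neuron, 16 soma libraries on the left and 16 dendrite libraries on the right), as log2(CPM + 1). Rows such as Canx and Rpn1 are filled across both blocks, while Spcs3, Sec23a and Cope are dark in most libraries.

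At an equal depth of 1071293 gene counts per library, which left 15 neurons, 27.2 ± 5.45 of the 39 genes had 5 or more counts in soma and 27.3 ± 5.58 in dendrites (SD, n = 15). More were found in dendrites in 6 neurons, more in soma in 7, and equally many in 2. On average dendrites had 0.133 ± 7.69 more genes than the soma (SD), so single neurons differed far more than the compartments did on average. The lowest value, 13 genes, came from the dendrites of neuron 20, and the next, 17 genes, from the soma of neuron 28. Without neuron 20 the mean difference was 0.929 genes.

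The 39 genes together took 0.840% ± 0.229 of the gene counts in soma, between 0.411% and 1.31%, and 0.845% ± 0.165 in dendrites, between 0.505% and 1.16% (SD, n = 16 each). The share was higher in dendrites in 7 neurons and higher in soma in 9. The 2 ranges overlapped over most of their length.

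**Figure D2:**
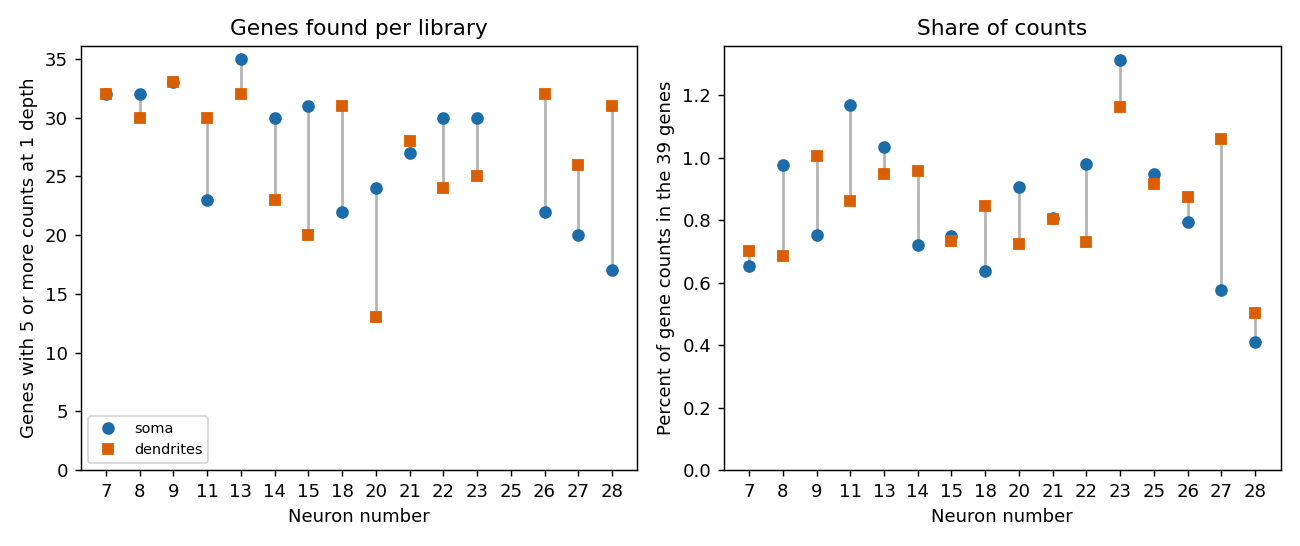
Left, the number of the 39 genes with 5 or more counts after thinning all libraries to 1 depth, per neuron (soma as circles, dendrites as squares; neuron 25 had too few counts). Right, the percent of gene counts in the 39 genes, where soma lay between 0.411% and 1.31% and dendrites between 0.505% and 1.16%.

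When the dendrites of each neuron were set against its own soma, no member passed. With edgeR's quasi-likelihood test and the neuron as a block, 0 of 35 tested genes had an adjusted p under 0.05, as did 0% of the 4916 genes tested. All 35 had an adjusted p of 0.999, and 0 had an unadjusted p under 0.05, a level that 2.62% of all tested genes reached. Limma-voom and an exact sign-flip permutation test also called 0 members after adjustment. At an unadjusted p under 0.05, limma-voom had 3 of 35 members, against 4.6% of all genes. The sign-flip test had 4 of 35, against 5.37% of all genes. The edgeR test with no replicate block had 1 of 35, against 6.83% of all genes. With no filter on low counts, 0 of 39 members passed the adjusted threshold, against 0.00721% of 13879 genes. DESeq2's Wald test called 2 members, Sec61a1 and Spcs2, or 5.71%, against 8.2% of all genes. At an unadjusted p under 0.05 it had 10 of 35 members, against 20.6% of all genes. Log2 fold changes, dendrites over soma, were above 0 for 17 members and below 0 for 18, against 54.8% above 0 over all tested genes. Their median was -0.037, against 0.127 over all tested genes. It was 0.04 with edgeR's RLE factors, which follow the method of DESeq2 size factors, or with library totals.

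Without neurons 7, 8 and 9, 0 of 32 tested members passed the edgeR test. Values that then moved by more than 1.5 times were the log2 fold changes of Sec61a1 at 6.11, Spcs1 at -1.54, Rpn1 at -0.82, Sar1a at 1.77 and Copa at -0.19. The medians of roles that did so were 0.56 for the TRAP complex, -0.38 for the oligosaccharyltransferase and -0.72 for folding, and that of all members turned to 0.15.

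The precision differed widely between genes. The 95% interval of the log2 fold change, by a normal approximation, held 0 for all 35 genes, and lay within 2 either way, a 4-fold difference, for only 5 of them. The SE ran from 0.466 for Canx to 2.39 for Ssr1, with a median of 1.33. It was taken as the size of the log2 fold change divided by √F. Both are near 0 for Ssr1 (log2 fold change -0.037; edgeR unadjusted p = 0.988), so its rank as the widest is uncertain. For the other 30 genes the interval also held differences of more than 4-fold.

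**Figure D3:**
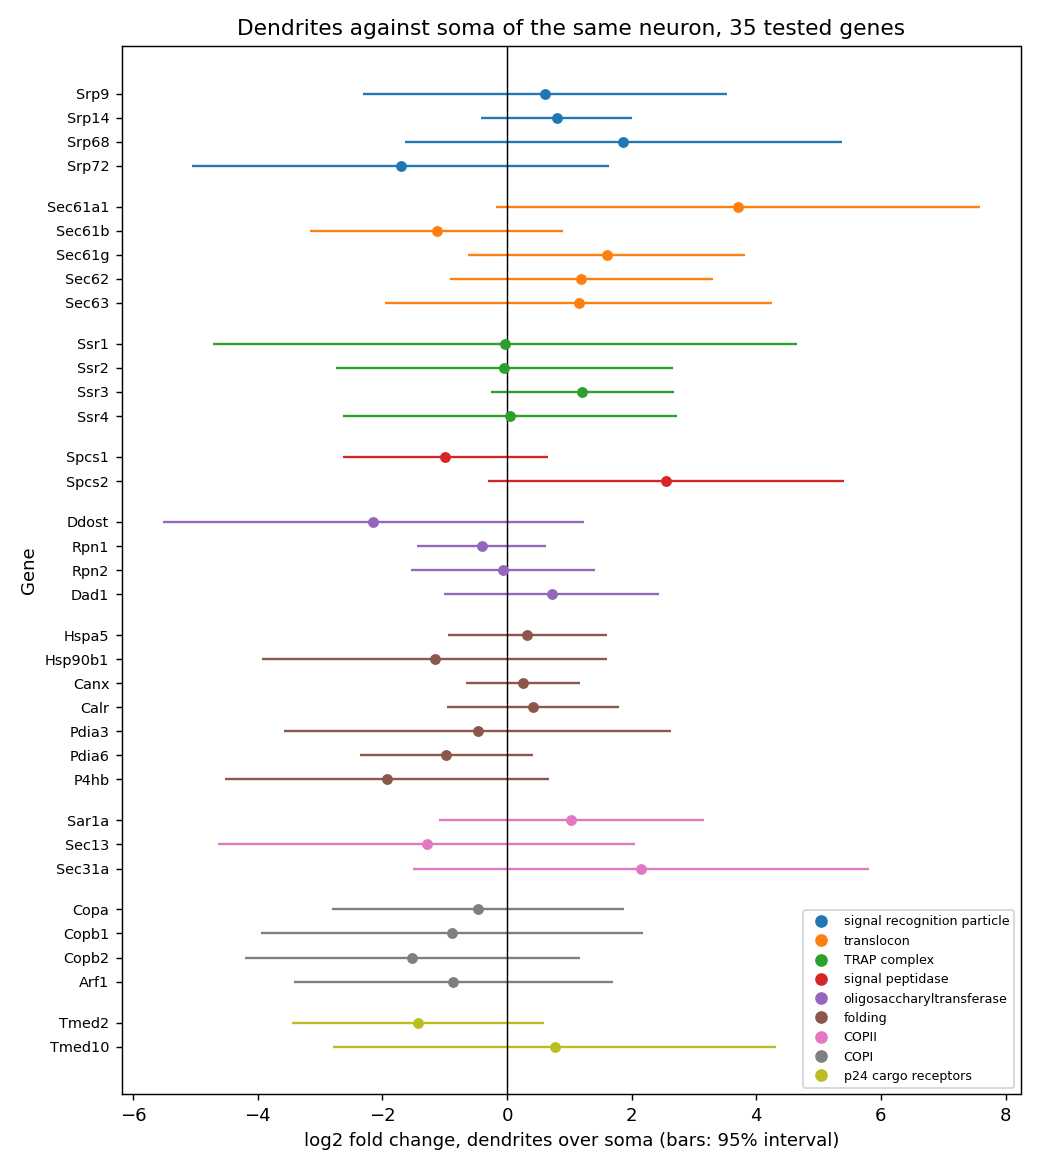
Log2 fold change of dendrites over soma for the 35 tested genes, coloured by role (points: estimate; bars: 95% interval; 16 neurons). Every interval crosses 0; Canx has the narrowest and Ssr1 the widest.

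Counting neurons gave a similar picture. Srp14 and Spcs2 were higher in dendrites in 12 of 16 neurons, and Sec61a1 and Sec61g in 11. These 4 of 35 tested members, or 11.4%, were higher in dendrites in 11 or more neurons, against 8.97% of all tested genes. Sec61b was higher in soma in 13 neurons, Spcs1 in 12, and Ddost, Hsp90b1, P4hb and Copb1 in 11. These 6 members, or 17.1%, were higher in soma in 11 or more neurons, against 8.28% of all tested genes.

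The signal recognition particle binds the signal sequence as it leaves the ribosome and slows translation. Srp14, which with Srp9 forms the part that slows elongation, had a lowest, median and highest level of 56.8, 441 and 2070 CPM in soma. In dendrites these were 5.40, 742 and 1573 CPM, so the groups overlapped almost entirely. Its log2 fold change was 0.80 ± 0.62 (SE, n = 16 neurons). Srp9 was less even, with 0 CPM in 2 somata and a highest level of 1134 CPM in the soma of neuron 23 and 1445 CPM in the dendrites of neuron 26. Srp68 and Srp72 form the larger protein body of the particle. The median of Srp68 was 17.8 CPM in soma and 43.7 CPM in dendrites, and it reached 10 counts in 11 and 12 libraries. Srp72 reached 10 counts in 10 somata but in 5 dendrite libraries, all of neurons whose soma also had them. Srp54a, the row for the GTPase that holds the signal sequence, had 10 or more counts in 9 soma and 8 dendrite libraries. Of the 4 tested genes, 3 were above 0, with a median log2 fold change of 0.71.

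The Sec61 channel consists of an alpha, a beta and a gamma subunit. These 3 subunits stood at different sides of 0, and only beta had the higher median in soma. Sec61a1, which encodes the pore itself, had 0 counts in 3 somata and fewer than 10 in 6, with a median of 10.7 CPM and a highest level of 276 CPM. No dendrite library was at 0, and the levels there ran from 2.09 through a median of 60.6 to 1227 CPM in neuron 14 and 977 CPM in neuron 27. Its log2 fold change of 3.70 ± 1.98 (SE, n = 16; edgeR unadjusted p = 0.0729) was the highest among the members. DESeq2's Wald test gave 3.85 with an adjusted p of 0.000782, while over the other alternatives the adjusted p was between 0.644 and 1. With no replicate block the log2 fold change was 2.22.

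Sec61g, for the small gamma subunit, had 0, 31.95 and 246 CPM in soma as lowest, median and highest, and 7.53, 67.2 and 334 CPM in dendrites. The groups overlapped over most of their range, and the log2 fold change was 1.60 ± 1.14 (SE). Sec61b, for the beta subunit, went the other way in most neurons, with 0.218, 267 and 786 CPM in soma and 0, 74.3 and 402 CPM in dendrites. The dendrites were higher only in neurons 8, 21 and 28. Sec62 and Sec63 help the channel to take up proteins after their synthesis. Sec62 stood at 0.960, 130 and 803 CPM in soma and 0, 164 and 1291 CPM in dendrites, and its highest library in both compartments was that of neuron 9 (log2 fold change 1.19 ± 1.08, SE). Sec63 was sparse, with 10 or more counts in 7 somata and 9 dendrite libraries, but 863 CPM in the soma of neuron 21. Over the 5 translocon genes, 4 were above 0 and the median log2 fold change was 1.19, between 0.68 and 1.62 over 26 alternatives, with the lowest value under no replicate block.

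The TRAP complex sits beside the channel and helps certain signal sequences to enter. Ssr3, its gamma subunit, was found in nearly every library, with 0.504, 317 and 924 CPM in soma and 13.7, 500.1 and 1444 CPM in dendrites. The only library with fewer than 10 counts was the soma of neuron 28, and the log2 fold change was 1.21 ± 0.75 (SE, n = 16). Ssr1, Ssr2 and Ssr4 were patchier. Ssr1 reached 10 counts in both compartments of 8 neurons, in soma alone in 4 and in dendrites alone in another 4. Ssr4 was at 0 in 4 somata and above 0 in all 16 dendrite libraries. The median log2 fold change over the 4 genes was 0.0082. It was -0.058 with no replicate block, lay between -0.37 and 0.49 with each neuron left out in turn, where it was below 0 in 4 of 16 fits, and was 1.21 with a stricter filter (10 or more counts in 28 of 32 libraries), which kept Ssr3 alone.

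The signal peptidase cuts the signal sequence from the entering protein. Its 2 tested subunits stood on opposite sides of 0, and neither passed the edgeR test. Spcs1 had 2.23, 227 and 1335 CPM in soma and 6.01, 161 and 673 CPM in dendrites, with the higher level in soma in 12 of 16 neurons (log2 fold change -0.99 ± 0.84, SE). Spcs2 had 0, 64.7 and 1015 CPM in soma and 0, 229 and 958 CPM in dendrites, with the higher level in dendrites in 12 (2.55 ± 1.45, SE). In 12 of the 16 neurons, both compartments had 10 or more counts of Spcs2. DESeq2 gave Spcs2 an adjusted p of 0.0390, whereas the lowest over the other alternatives was 0.865, and its log2 fold change was 0.71 with no replicate block. Spcs3 had counts in 1 soma and 1 dendrite library only, with 12.1 CPM in the soma of neuron 14.

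**Figure D4:**
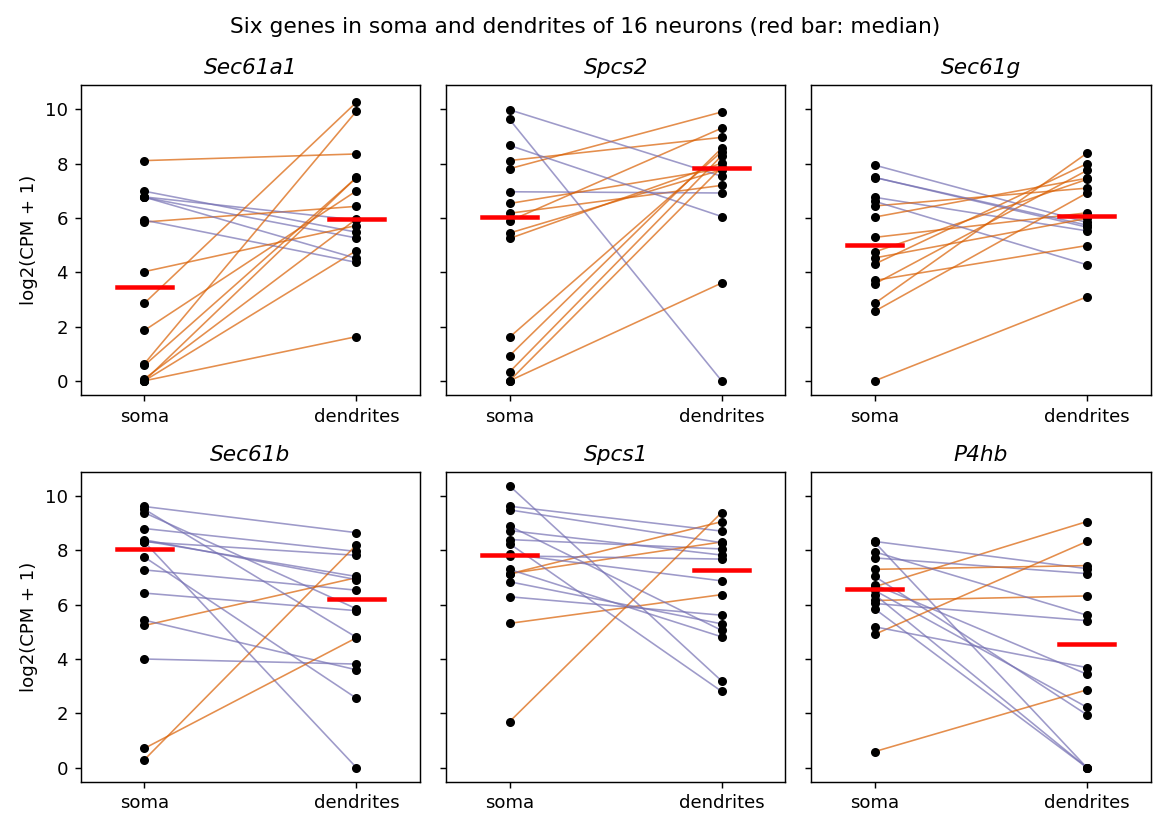
Level of 6 genes in soma and dendrites, as log2(CPM + 1) (points: libraries; lines: 1 neuron, orange where dendrites were higher and purple where soma was higher or equal; red bars: medians). These genes were picked after their values were seen; Sec61a1, Spcs2 and Sec61g were higher in dendrites in 11 or 12 of 16 neurons, and Sec61b, Spcs1 and P4hb higher in soma in 11 to 13.

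Glycosylation genes were the most evenly found, with 10 or more counts in both compartments in 55 of 64 combinations of gene and neuron. The oligosaccharyltransferase transfers a preformed sugar chain to asparagines of the entering protein. Rpn1, for ribophorin I, had 216, 877 and 4505 CPM in soma and 3.84, 816 and 5758 CPM in dendrites, with a log2 fold change of -0.41 ± 0.53 (SE, n = 16). Dendrites held both extremes: 3.84 CPM in neuron 15 and 5758 CPM in neuron 20. In that last library Rpn1 made up 79.5% of all counts of the 39 genes, and Canx and Hspa5 were at their lowest of the 16 dendrite libraries. With no replicate block, the log2 fold change of Rpn1 turned to 1.20. Rpn2 and Dad1 had 10 or more counts in all 16 somata and in 15 dendrite libraries each. Their medians were 170 and 93.1 CPM in soma and 189.7 and 186 CPM in dendrites. Ddost was less regular, with 0, 69.3 and 528 CPM in soma and 0, 16.0 and 333 CPM in dendrites, and was higher in soma in 11 neurons (log2 fold change -2.15 ± 1.72, SE).

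Folding genes held 4 of the 7 members found in all 32 libraries. Canx, for the membrane-bound lectin chaperone calnexin, had 146, 878 and 3642 CPM in soma and 57.8, 1009.5 and 2371 CPM in dendrites. Its log2 fold change of 0.25 ± 0.47 (SE) had a 95% interval from -0.66 to 1.16, the narrowest of the 35 tested members, and it was 0.0022 without neuron 18. Hspa5, for the ER chaperone BiP, had 1.20, 464 and 3263 CPM in soma and 29.5, 644 and 1506 CPM in dendrites, with dendrites above soma in 7 neurons. Calr, for calreticulin, the soluble relative of calnexin, had medians of 134 and 209 CPM and was higher in dendrites in 9 neurons. Hsp90b1, for the ER member of the HSP90 family, had medians of 173 and 118 CPM and was higher in soma in 11 neurons.

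The protein disulfide isomerases form and exchange disulfide bonds. P4hb and Pdia6 had the higher median in soma, Pdia3 and Pdia4 in dendrites. P4hb had 0.504, 95.8 and 321 CPM in soma. In dendrites it was at 0 in 3 libraries, with a median of 26.8 CPM and a highest level of 534 CPM in neuron 7. The log2 fold change was -1.92 ± 1.33 (SE, n = 16), and 12 neurons had 10 or more counts in both compartments. Pdia6 had 50.4, 244 and 866 CPM in soma and 10.8, 165 and 611 CPM in dendrites (-0.97 ± 0.71, SE). Pdia3, which works with calnexin and calreticulin, had medians of 18.4 and 43.6 CPM. Yet it was higher in dendrites in 8 neurons and in soma in 8, and its log2 fold change was below 0. Pdia4, with medians of only 0.144 and 2.13 CPM, did not pass the filter. Only 2 neurons had 10 or more counts of Pdia4 in both compartments, 4 in soma alone and 5 in dendrites alone. Its highest level was 335 CPM in the dendrites of neuron 27. The median log2 fold change over the 7 tested folding genes was -0.47, and it was above 0 in 4 of 26 alternatives, among them 0.23 with the stricter filter, which left out Pdia3 and P4hb.

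Many ER chaperone genes carry in their promoters an ER stress response element, through which NF-Y and ATF6 are known to raise transcription in the unfolded protein response. The element was searched as CCAAT, any 9 bases and CCACG, on both strands of RefSeq promoters of build GRCr8, from 250 bases before to 50 after each gene's start. Promoters were matched by symbol for 35 of the 39 genes. The element was found in 4 of them, among them Hspa5, Hsp90b1 and Calr, or 11.4%, and in 0.0765% of 27457 promoters. All 4 are folding genes, of which 6 had a promoter in the table. The sequences of Hspa5, Hsp90b1 and Calr are given below. Capitals mark the CCAAT and CCACG ends, which all of them hold because these were the letters searched for. The 9 lower-case letters between the ends are the spacer, and each sequence is written 5′ to 3′ on the strand that carries CCAAT. Each sequence has 31 bases, and the outer 6 lower-case letters on either side flank the element. Positions are those of all 31 bases. The sequence of Hspa5 lies on the plus strand at chr3:38452967-38452997. Those of Hsp90b1 lie at chr7:23012445-23012475 on the minus and chr7:23012341-23012371 on the plus strand. That of Calr is at chr19:40213129-40213159 on the minus strand.
Hspa5: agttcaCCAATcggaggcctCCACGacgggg
Hsp90b1, first: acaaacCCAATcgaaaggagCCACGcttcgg
Hsp90b1, second: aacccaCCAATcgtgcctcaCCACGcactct
Calr: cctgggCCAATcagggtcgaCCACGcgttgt

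The match of letters says nothing of whether a factor was bound in these cells.

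COPII coats bud vesicles from the ER, and their genes were the least evenly found, with both compartments at 10 or more counts in 25 of 64 combinations. Sar1a, the GTPase that starts the coat, had 0, 308 and 1662 CPM in soma and 4.88, 291 and 881 CPM in dendrites. It was at 0 in 2 somata and reached 10 counts in all 16 dendrite libraries. The log2 fold change of 1.03 ± 1.08 (SE, n = 16) turned to -0.27 with no replicate block. Sec13 and Sec31a together form the outer cage. Sec13 reached 10 counts in 13 somata and 8 dendrite libraries, with medians of 87.6 and 11.9 CPM and a highest level of 777 CPM in the dendrites of neuron 15. Sec31a did the reverse, in 7 somata and 11 dendrite libraries, with medians of 0.404 and 7.28 CPM and a log2 fold change of 2.15 ± 1.86 (SE). Only 4 neurons had 10 or more counts of Sec31a in both compartments. Sec23a, of the inner coat, reached them in 1 soma and 2 dendrite libraries and did not pass the filter.

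COPI was the only one of the 9 roles in which every tested member was below 0. This did not extend to a further list that pooled coat genes with their partners and p24 genes. The coat subunits in that list were not counted apart. Of 16 other COPI and p24 genes tested, 10 were above 0, with a median log2 fold change of 0.31. Copa, for the alpha subunit of the coat, had 0, 149.5 and 601 CPM in soma and 0.232, 112 and 415 CPM in dendrites (log2 fold change -0.47 ± 1.20, SE; -0.095 without neuron 20). Copb1 and Copb2 had medians of 99.99 and 55.9 CPM in soma and 46.5 and 20.3 CPM in dendrites, and were higher in soma in 11 and 10 of 16 neurons. Arf1, the GTPase that recruits the coat, was low in both, with medians of 2.51 and 1.93 CPM. Cope did not pass the filter and reached 10 counts in 5 somata and 3 dendrite libraries. Together the 5 COPI genes took 0.0454% ± 0.0297 of gene counts in soma and 0.0243% ± 0.0181 in dendrites (SD, n = 16), with the higher share in soma in 10 neurons. The median log2 fold change over the 4 tested genes was -0.87, and the value stayed below 0 in all 26 alternatives, from -1.33 without neuron 27 to -0.49 without neuron 23. With the stricter filter Copa was the only gene left, at -0.46. None of the 4 passed the edgeR test, and their 95% intervals all held 0.

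The p24 proteins Tmed2 and Tmed10 form a cargo receptor that travels between the ER and the Golgi. Tmed2 had 0, 302 and 949 CPM in soma and 1.46, 149.7 and 650 CPM in dendrites, with a log2 fold change of -1.43 ± 1.03 (SE, n = 16) and the higher level in soma in 10 neurons. Tmed10 was sparse, with medians of 3.26 and 2.17 CPM and 10 or more counts in both compartments of 5 neurons.

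Across 16 neurons the Spearman correlation between the 2 compartments had a median of 0.0797 over the 35 tested genes, against 0.0816 over all tested genes, and ranged from -0.44 for Sec61g to 0.54 for Ssr2. Within a compartment the median correlation between pairs of members was 0.0824 in soma and 0.05 in dendrites, against 0.0439 and 0.0559 for pairs of all tested genes (16 libraries each). Correlations near 0 in sparse counts are no finding either way.

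The spread between neurons was wide in both compartments. The SD of log2 CPM over 16 libraries had a median of 3.05 in soma and 2.66 in dendrites over the 35 genes, and of 3.46 and 3.22 over all tested genes. It was smaller in dendrites for 27 of 35 members, or 77.1%, and for 61.5% of all tested genes. Hspa5 had an SD of 2.47 in soma and 0.997 in dendrites, Ssr3 2.53 and 1.02, and Sar1a 4.03 and 1.56. P4hb and Rpn1 were more variable in dendrites, with 2.07 and 3.84, and 1.25 and 2.56. Canx, with 1.24 and 0.953, and Calr, with 1.34 and 1.17, varied little in both. These differences in spread were not tested.

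**Figure D5:**
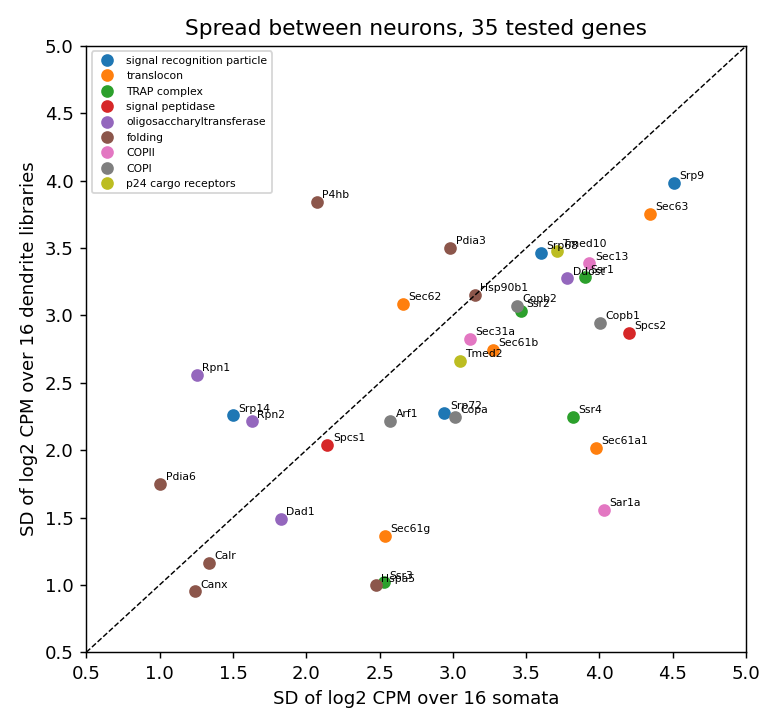
SD of log2 CPM over the 16 soma libraries (x axis) against the 16 dendrite libraries (y axis) for the 35 tested genes, coloured by role. Below the dashed line of equal SD lie 27 genes, among them Sar1a and Sec61a1; P4hb and Rpn1 lie above it.

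Other genes of the same pathway, from lists chosen by function with earlier results known, were tested in the same fit. With edgeR 0 passed in either direction. Of 8 further translocation genes 3 were above 0, of 9 N-glycosylation genes 5, of 17 folding and quality control genes 9, of 11 COPII genes 5, and of 16 COPI and p24 genes 10. None of these genes had an unadjusted p under 0.05. Naca, a subunit of the complex that guards nascent chains at the ribosome, had 10 or more counts in all 32 libraries, with medians of 458 and 416 CPM, and Btf3, its partner, medians of 70.7 and 47.3 CPM. Tusc3, an oligosaccharyltransferase subunit, had medians of 505 and 644 CPM, and Alg2, an enzyme that builds the sugar chain, 333 and 380.1 CPM. Ppib, an ER prolyl isomerase, stood at 72.3 and 97.6 CPM, and Vcp, the ATPase that pulls misfolded proteins out of the ER, at 436 and 415 CPM. For Sar1b, a second Sar1 GTPase, the medians were 225 and 105 CPM, and for Tfg, an organiser of ER exit sites, 550 and 185 CPM, with Tfg higher in soma in 12 of 16 neurons. Arf5 and Arf4, small GTPases related to Arf1, had 143 and 208 CPM, and 463 and 238 CPM.

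Genes of the unfolded protein response, by which the ER raises its folding capacity, had 6 tested members, 4 of them above 0 and 0 past the edgeR threshold or an unadjusted p of 0.05. Atf4, a transcription factor of the response, was present in every library, with 40.2, 775 and 2167 CPM in soma and 19.5, 867 and 1801 CPM in dendrites (log2 fold change 0.05 ± 0.39, SE, n = 16). Xbp1, another of its transcription factors, was higher in soma in 12 of 16 neurons, with 0.0601, 135 and 609 CPM in soma and 0.0519, 52.9 and 267 CPM in dendrites (-1.78 ± 1.25, SE; edgeR adjusted p = 0.999).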

How the data were processed

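The authors deposited 1 file of counts per gene for each library, 32 files in all, with whole numbers and differing totals; genome build rn6 is named per the submitters' processing notes. Sources used here name no aligner or annotation and do not say how strand and multiply matching reads were handled, so genes with near-identical copies or overlapping neighbours are uncertain. Library sizes and tests left out the 92 spike-in rows.

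The analysis used edgeR 4.0.16 in R 4.3.3: filterByExpr by compartment (minimum count 10; 4916 genes), TMM, estimateDisp, glmQLFit (robust) and glmQLFTest, with Benjamini-Hochberg adjustment over all tested genes and a threshold of 0.05. The neuron was a block, since each cell gave 1 soma and 1 dendrite library, per the series' design text, and titles carry the cell's number. Spearman correlations of profiles centred on the compartment averaged 0.0678 within neurons, with 4 of 16 over 0.1, and -0.00054 across neurons. The SE was taken as the size of the log2 fold change divided by √F. Whether neurons shared a culture or animal was not given, so p-values measure the spread between these cells.

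CPM is per 1000000 gene counts; log2 CPM for spreads and correlations used TMM and a prior count of 2. Libraries were thinned at random to the smallest total of at least 1000000 gene counts. Reads carry no molecular identifiers that the labels name. The alternatives tried were leaving out the replicate block, scaling by edgeR's RLE factors (the method of DESeq2 size factors) or by library totals, and no filter on low counts. Others were 10 counts in 28 of 32 libraries, DESeq2 1.42.0, limma-voom (limma 3.58.1), exact sign-flip permutation and leaving out neurons. The tests were tried on simulated data. With the spread estimated from these counts, the edgeR test called 2% of 100 planted 4-fold changes and 30% of 100 planted 16-fold changes. A gene that did not pass can therefore still differ by that much. One promoter sequence is not reported here. Fold changes are given for 16 members: the 12 with the smallest unadjusted p and the most widely found member of each of 9 roles, and 2 widely found genes are named of each further list. The members, roles and lists were chosen with earlier results of these data known.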

Additional observations from a re-analysis of the deposited data

Results flagged for a closer look

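Spike-in transcripts of the ERCC set, which entered no comparison above, were present in every library without a control library to set them against. Their median share was 0.482% of all counts over the 32 libraries, with the lowest, 0.0605%, in the soma of neuron 8 and the highest, 4.33%, in the dendrites of neuron 20.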

How the results depend on the processing

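The count of members past an adjusted p of 0.05 was 0 in 25 of 26 alternatives and 2 with DESeq2's Wald test, Sec61a1 (log2 fold change 3.85) and Spcs2 (2.56). Over all tested genes the count was 0 except for 1 with no filter on low counts and 403 with DESeq2's Wald test. With no replicate block, 0 members passed, and the log2 fold changes of Rpn1 and Sar1a turned to 1.20 and -0.27; the cause was not tested. The other fold changes named by rule kept their direction in every alternative in which the gene was tested. Medians of roles moved by less than the SD between single neurons, a wide yardstick for values fitted over 16 neurons. Many changed sign, such as that of COPII, from 1.03 to -0.12 with no replicate block. That of all members did so in 8 of 10 settings and, with each neuron left out in turn, in 12 of 16. With neurons left out in turn it lay between -0.30 and 0.44. Those of the signal recognition particle, the translocon and COPI kept their sign throughout. The mean difference in members found at 1 depth was 1.60 at 1 or more counts and -0.60 at 20 or more. Low counts kept Spcs3, Sec23a, Pdia4 and Cope from passing the filter.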
